A study of Mus musculus with 38 samples.

Results

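Genes for protein arginine methyltransferases were followed through breast tumor progression and chemotherapy in the MMTV-PyMT hyperplasia transplant model. All probes on the arrays whose gene name was Prmt1, Prmt2, Prmt3, Carm1, Prmt5, Prmt6, Prmt7 or Prmt8, or an older name of one of them, were taken, whatever their values. This gave 17 probes of 8 genes among 41174 probes, with 4 probes for Prmt3, 5 for Prmt6, 2 each for Carm1 and Prmt7 and 1 for each of the other genes. No probe carried an older name. The 38 arrays came from mouse tumors of FVB/n background. In both experiments hyperplasias of MMTV-PyMT;actin-GFP mice, in which the mouse mammary tumor virus promoter drives the polyoma middle T oncogene and an actin promoter drives GFP, had been transplanted into mammary fat pads of wild-type hosts, and GFP-positive cells had been sorted from the outgrowths or lungs. The progression experiment held 5 adenomas from early outgrowths, 6 carcinomas from late outgrowths, 6 samples of disseminated cells from lungs of tumor-bearing mice and 5 samples of lung metastases grown after removal of the primary tumor. Lungs of several mice were pooled for a sample of disseminated cells. The chemotherapy experiment held 6 untreated tumors, 6 residual tumors taken after the first dose and 4 relapsed tumors taken after the fourth dose of docetaxel, doxorubicin and cyclophosphamide, begun 2 months after transplantation. The labels call the latter groups regressed and resistant tumors. Nothing in the labels ties a sample to a separate animal, so p-values measure the spread between these samples only.

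Protein arginine methyltransferases move methyl groups from S-adenosylmethionine to arginines of histones, splicing factors and signaling proteins. Type I enzymes (Prmt1, Prmt2, Prmt3, Carm1, Prmt6 and Prmt8) leave asymmetric dimethylarginine, the type II enzyme Prmt5 leaves symmetric dimethylarginine, and Prmt7 leaves monomethylarginine. Prmt1 makes most of the asymmetric mark in mammalian cells, Carm1 is a coactivator of nuclear receptors, including the estrogen receptor in breast cells, and Prmt6 methylates histones. Prmt8 is known mainly from brain. Arrays measure transcripts, and enzyme activity and methylated proteins were not measured here.

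Bases before the transcription start are shown for Prmt1 and Prmt7, the genes with the widest spread of group means when each gene is read from its brightest probe, and for Prmt6, whose probes moved in opposite directions. RefSeq gives a promoter for 7 of the 8 genes on GRCm38.p6, and Carm1 has no entry. Capitals mark matches, on either strand, to CACGTG (the E-box), to GGGCGG (the GC box, CCGCCC on the other strand) or to CCAAT (the CCAAT box, which reads ATTGG on the other strand), and no matches overlapped in the stretches of 250 bases read. Prmt1 is at chr7:44986421-44986670 on the minus strand, Prmt6 at chr3:110251000-110251249 on the minus strand and Prmt7 at chr8:106210804-106211053 on the plus strand.
Prmt1: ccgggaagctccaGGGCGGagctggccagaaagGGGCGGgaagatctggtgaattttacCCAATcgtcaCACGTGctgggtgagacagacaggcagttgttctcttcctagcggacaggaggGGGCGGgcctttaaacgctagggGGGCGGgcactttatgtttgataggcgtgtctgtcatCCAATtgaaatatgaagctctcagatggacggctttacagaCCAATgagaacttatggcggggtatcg
Prmt6: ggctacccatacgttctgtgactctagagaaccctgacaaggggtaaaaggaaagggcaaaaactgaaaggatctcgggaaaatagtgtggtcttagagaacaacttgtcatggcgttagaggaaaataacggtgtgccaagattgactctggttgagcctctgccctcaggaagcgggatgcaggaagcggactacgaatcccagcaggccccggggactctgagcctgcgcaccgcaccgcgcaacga
Prmt7: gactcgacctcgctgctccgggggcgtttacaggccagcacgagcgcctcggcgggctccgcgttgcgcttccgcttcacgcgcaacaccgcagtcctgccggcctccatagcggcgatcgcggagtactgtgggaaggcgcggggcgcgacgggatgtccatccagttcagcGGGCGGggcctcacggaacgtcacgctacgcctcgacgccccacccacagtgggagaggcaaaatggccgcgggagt
The stretch of Prmt1 held 1 E-box, 4 GC boxes and 3 CCAAT matches, that of Prmt7 held 1 GC box, and that of Prmt6 held no match to these letters. The share of G and C was 54.8% for Prmt1, 54% for Prmt6 and 70% for Prmt7. Among the 7 genes, 2 had an E-box, 5 a GC box and 4 a CCAAT match, where 6.02%, 32.7% and 33.8% of all 32851 promoters of the same length had one. These matches are a description of letters and were not tied to any measurement.

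Every value below is a log2 ratio of the Cy5-labeled sample to a Cy3-labeled Universal mouse reference on 1 probe, without dye swaps, so a value of 0 is the level of the reference and levels of different probes are not compared. The share of spots with a sample channel well above background was 48.4 to 78.9% in the progression experiment and 50.5 to 64.3% in the chemotherapy experiment. On all 22 progression arrays 8 of the 17 probes were well above background, and on all 16 chemotherapy arrays 11 were. Prmt8 and Prmt6 probe 4 were not well above background on any array, in either channel, and no fold is given for them. Markers of host cells were read beside the tumor cells. The mean log2 ratio of the 12 genes of a macrophage list was -0.3 to 0.53 in adenomas, -0.41 to 0.8 in carcinomas apart from carcinoma replicate 6 at 5.25, 3.48 to 5.42 in disseminated cells and 1.1 to 5.57 in metastases. The 8 lung epithelium markers had means of 0.58 to 1.08 in adenomas, 0.53 to 1.35 in carcinomas, 1.98 to 3.58 in disseminated cells and 1.48 to 2.84 in metastases. In disseminated cells 6 of 8 were called higher than in adenomas, and in metastases 4 of 8 were called higher than in adenomas and 3 of 8 than in carcinomas. Of 7 alveolar macrophage genes 5 were called higher in metastases than in adenomas and 4 than in carcinomas. The 10 luminal mammary markers were between 2 and 3.56 in the primary tumors but between -0.16 and 3.16 in disseminated cells and 0.05 and 4.25 in metastases. A smaller share of tumor cells and less RNA per cell cannot be told apart in such samples. Slides 1 to 3 held carcinomas and metastases and slides 4 to 6 held adenomas and disseminated cells, scanned on another day. Metastases against carcinomas and disseminated cells against adenomas could therefore be compared within slides, and in the other progression comparisons slide and group cannot be told apart.

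Arginine methyltransferase probes changed in several directions between the stages of progression. In metastases against adenomas Prmt1, Prmt3 probe 1 and Prmt6 probe 3 rose and Carm1 probe 2, Prmt5, Prmt6 probe 1 and Prmt7 probe 2 fell, at an adjusted p below 0.05 in limma's moderated test with Benjamini-Hochberg adjustment over all probes. These were 3 of 17 probes higher and 4 lower, where 13.1% of all probes were called higher and 14.4% lower. Against carcinomas 3 were higher in metastases and 1 lower, beside 8.95% and 12.1% of all probes, and against disseminated cells 3 were higher and 1 lower, beside 6.93% and 5.93%. Disseminated cells had 0 probes higher and 2 lower than carcinomas, beside 9.46% and 15.3%, and 1 higher and 5 lower than adenomas, beside 7.58% and 10.6%. Carcinomas had 1 higher and 2 lower than adenomas, beside 6.25% and 5.2%. The counts were read against these shares, not as a property of the gene family. The median change of the 17 probes was -0.02 in metastases against adenomas, where that of all probes was 0.02. Comparisons that share a group are not independent of each other.

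**Figure D1:**
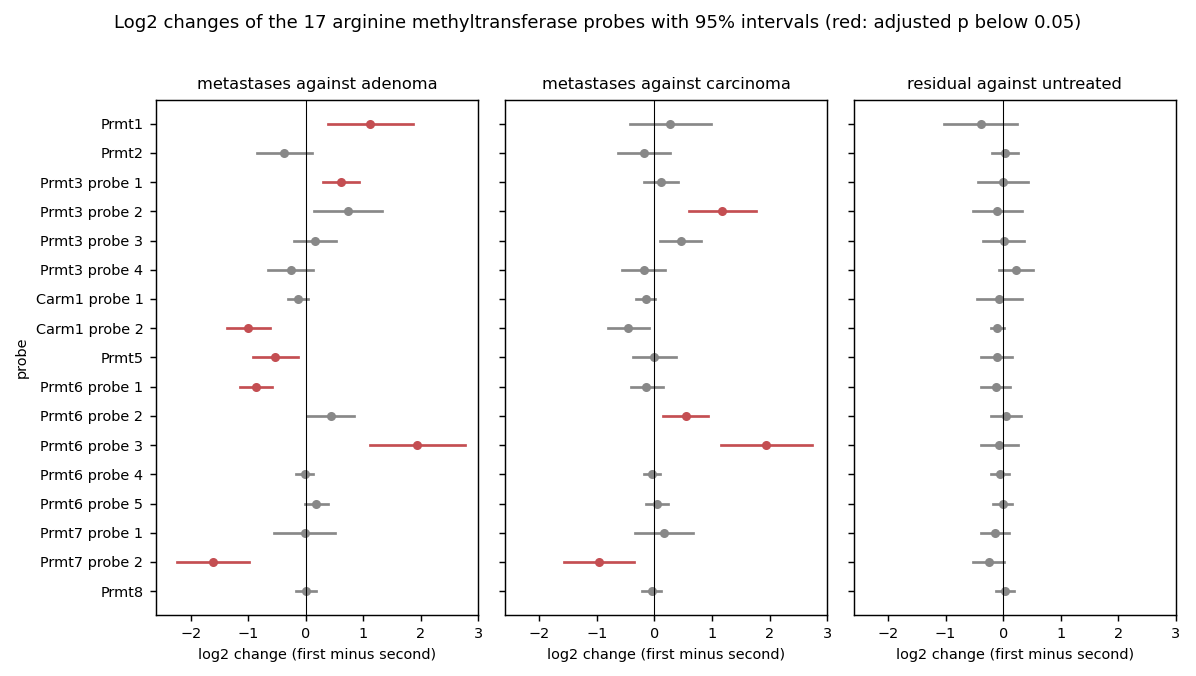
Log2 change of each of the 17 probes (points) with its 95% interval (lines) for metastases against adenomas, metastases against carcinomas and residual against untreated tumors, with probes called at an adjusted p below 0.05 in red. Probes of Prmt3, Prmt6 and Prmt7 lie apart from each other in the panels on metastases, and no probe is called in the panel on residual tumors.

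Prmt1 was lowest in disseminated cells and highest in metastases. The 5 adenomas had log2 ratios of -4.66, -3.78, -4.38, -4.05 and -4.44, and the 5 metastases had -4.48, -3.21, -3.55, -2.49 and -1.96. The 6 carcinomas ran from -3.81 to -3 with a median of -3.39, and the 6 disseminated samples from -5.62 to -4.1 with a median of -5.01. All disseminated samples lay below all carcinomas, whereas metastases spread from among the adenomas to above every carcinoma. Group means were -4.96 ± 0.53 (SD, n = 6) in disseminated cells, -4.26 ± 0.34 (n = 5) in adenomas, -3.41 ± 0.3 (n = 6) in carcinomas and -3.14 ± 0.97 (n = 5) in metastases. Prmt1 thus fell by 1.54 on the log2 scale from carcinomas to disseminated cells (SE 0.324, adjusted p = 0.00213), a fold of 2.92. It was 1.82 higher in metastases than in disseminated cells (SE 0.339, adjusted p = 0.00203) and 1.12 higher than in adenomas (SE 0.354, adjusted p = 0.0235). Neighbors in this order did not pass the test, with differences of -0.7 for disseminated cells against adenomas (95% interval -1.41 to 0.01), 0.85 for carcinomas against adenomas (0.14 to 1.55, adjusted p = 0.111) and 0.27 for metastases against carcinomas (-0.43 to 0.98). Within slides 1, 2 and 3 metastases differed from carcinomas by 0.44, 0.11 and 0.23. Within slides 4, 5 and 6 disseminated cells differed from adenomas by -1.13, -0.9 and 0. The called differences of Prmt1 lie between groups on different slides, where slide and group cannot be told apart. The call of metastases against adenomas was lost without adenoma replicate 1, metastases replicate 4 or metastases replicate 5, at adjusted p-values of 0.0529 to 0.0686. With the macrophage list as a covariate the fall in disseminated cells was no longer called (-1.13, adjusted p = 0.143), and the rise in metastases over disseminated cells was (1.69, adjusted p = 0.00285). In the methods' t-test with adjustment the rise over disseminated cells had an adjusted p of 0.0848 and that over adenomas 0.119.

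**Figure D2:**
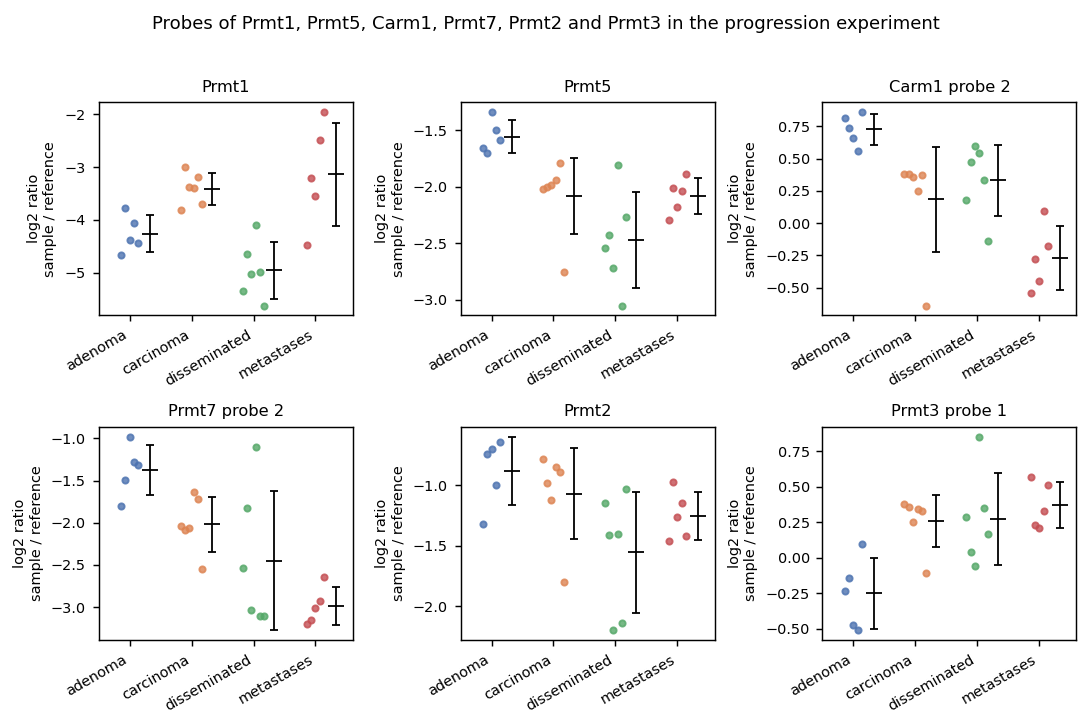
Log2 ratio of sample to reference for Prmt1, Prmt5, Carm1 probe 2, Prmt7 probe 2, Prmt2 and Prmt3 probe 1 in each array of the progression experiment (points), with the mean and SD of each group (black bars). Prmt7 probe 2 is below -2.6 in all 5 metastases and above -1.81 in all 5 adenomas, and carcinoma replicate 6 is the lowest carcinoma on each of these probes except Prmt1.

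Carm1 differed between its probes. Probe 2, the brighter, had log2 ratios of 0.81, 0.74, 0.66, 0.56 and 0.86 in adenomas and -0.54, -0.28, -0.45, 0.09 and -0.18 in metastases. It ran from -0.64 to 0.38 in carcinomas (median 0.36) and from -0.14 to 0.6 in disseminated cells (median 0.4). Every metastasis lay below every adenoma. The probe fell by 1 on the log2 scale from adenomas to metastases (SE 0.179, adjusted p = 0.000477), and it was called with each array left out, with changes of -1.09 to -0.93. It also fell by 0.6 from disseminated cells to metastases (SE 0.171, adjusted p = 0.0248) and by 0.54 from adenomas to carcinomas (SE 0.171, adjusted p = 0.0454). The first of these was lost without disseminated replicate 2, 3 or 4 or metastases replicate 1, 2 or 3 (adjusted p 0.0512 to 0.0708), and the second in 15 of the 22 leave-outs, among them that of carcinoma replicate 6, the lowest carcinoma at -0.64 (-0.38, adjusted p = 0.0635). Probe 1 fell by 0.29 from carcinomas to disseminated cells (SE 0.076, adjusted p = 0.00845) and by 0.27 from adenomas to disseminated cells (SE 0.0797, adjusted p = 0.0225). The latter call was lost without disseminated replicate 1 or 5 or adenoma replicate 3 or 4, at 0.0545 to 0.0616. In metastases against adenomas probe 1 changed by -0.13, and the difference between the changes of the probes was 0.86 (exact permutation test over arrays, two-sided, p = 0.00794, the smallest that 5 against 5 arrays allow; adjusted p = 0.0214 over the 54 tests of probe pairs).

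Prmt3, a ribosome-associated type I enzyme, also gave different readings. In the array files its probes 2 and 3 are assigned to the RefSeq transcript, and probes 1 and 4 to cDNA clones. Probe 1 had log2 ratios of -0.23, -0.14, -0.47, -0.51 and 0.1 in adenomas and 0.57, 0.23, 0.21, 0.33 and 0.51 in metastases, with no overlap. It ran from -0.11 to 0.38 in carcinomas and from -0.06 to 0.85 in disseminated cells. Against adenomas it rose by 0.62 in metastases (SE 0.151, adjusted p = 0.0048), by 0.52 in disseminated cells (SE 0.144, adjusted p = 0.017) and by 0.51 in carcinomas (SE 0.144, adjusted p = 0.0282). The last call was lost without adenoma replicate 3 or 4 or carcinoma replicate 1, 2, 4 or 5, at adjusted p-values of 0.0515 to 0.0813. Probe 2 rose by 1.18 from carcinomas to metastases (SE 0.279, adjusted p = 0.00622). Its 5 measured carcinomas lay between -2.09 and -1.65 and its metastases were at -0.49, -0.45, -0.3, -0.69 and -1.32. It was well above background on 16 of 22 arrays, 2 of 5 adenomas among them, and its spot in carcinoma replicate 6 was non-uniform and left out. Within slides 1, 2 and 3 the difference was 0.99, 1.29 and 1.34. Probe 3, the brightest, gave means of -1.2 ± 0.29 in carcinomas (n = 6), -1.05 ± 0.32 in disseminated cells (n = 6), -0.9 ± 0.33 in adenomas (n = 5) and -0.74 ± 0.18 in metastases (n = 5), and none of its differences passed the test. Probe 4 had group means of -0.79 to -0.37 and no call.

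Prmt6 is the gene whose probes opposed each other in metastases against adenomas. Probe 1 is at chr3:110064560-110064619 and probes 2 and 3 at chr3:110067355-110067414 and chr3:110067535-110067594, all on the minus strand of build mm7. Probes 4 and 5, at chr3:110070308-110070367 and chr3:110071214-110071273, are on the opposite strand. Probe 1 is assigned to the RefSeq transcript, and the others to cDNA clones, in the array files. No annotation of mm7 was used here, so exons were not assigned. Probe 1 had log2 ratios of 0.54, 0.16, 0.26, 0.33 and 0.5 in adenomas and -0.52, -0.24, -0.51, -0.51 and -0.75 in metastases. It ran from -0.55 to -0.15 in carcinomas and from -0.5 to 0.42 in disseminated cells. Adenomas were thus above every carcinoma and every metastasis on this probe. It fell by 0.86 from adenomas to metastases (SE 0.137, adjusted p = 0.000173), by 0.73 to carcinomas (SE 0.131, adjusted p = 0.00188) and by 0.47 to disseminated cells (SE 0.131, adjusted p = 0.019). Without disseminated replicate 5 the last gave an adjusted p of 0.0519. Disseminated cells differed from adenomas by -0.63, -0.7 and -0.02 within slides 4, 5 and 6.

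Probe 3 of Prmt6 moved the other way. Its log2 ratios were 0.3, -0.2, -0.01, -0.59 and -0.21 in adenomas and 1.73, 1.69, 2.04, 2.51 and 1.03 in metastases. In carcinomas it ran from -0.5 to 0.19 (median -0.13) and in disseminated cells from -1.38 to 1.39 (median -0.13). All metastases lay above all adenomas and carcinomas, whereas disseminated cells spanned more than the whole range of the primary tumors. The probe rose by 1.94 on the log2 scale in metastases against adenomas (SE 0.396, adjusted p = 0.00132) and by 1.94 against carcinomas (SE 0.379, adjusted p = 0.00177), a fold of 3.84 in both. Against disseminated cells the rise was 1.86 (SE 0.379, adjusted p = 0.00351). Within slides 1, 2 and 3 metastases exceeded carcinomas by 1.73, 2.42 and 1.63. With the macrophage list as a covariate the difference was 1.51 against carcinomas (adjusted p = 0.0307) and 1.36 against adenomas (adjusted p = 0.0654). The rise over disseminated cells was lost when only those groups were fitted (adjusted p = 0.0636), and in the methods' t-test with adjustment (0.107). Probe 2, the brightest, changed less than probe 3 and was not called in metastases against adenomas (0.43, adjusted p = 0.114). The change of probe 2 minus that of probe 3 was -1.52 against adenomas (exact permutation p = 0.00794). Against carcinomas it was -1.41 (exact permutation p = 0.00216), and the adjusted p was 0.0214 for each. Means of probe 2 were 1.12 ± 0.4 in disseminated cells (n = 6), 1.44 ± 0.13 in carcinomas (n = 6), 1.55 ± 0.26 in adenomas (n = 5) and 1.98 ± 0.41 in metastases (n = 5). It rose by 0.85 from disseminated cells to metastases (SE 0.188, adjusted p = 0.00567) and by 0.54 from carcinomas to metastases (SE 0.188, adjusted p = 0.0474). The latter call stood in 7 of 22 leave-outs, with changes of 0.38 to 0.66. Probe 5 was well above background on 9 of 22 arrays and had no call.

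**Figure D3:**
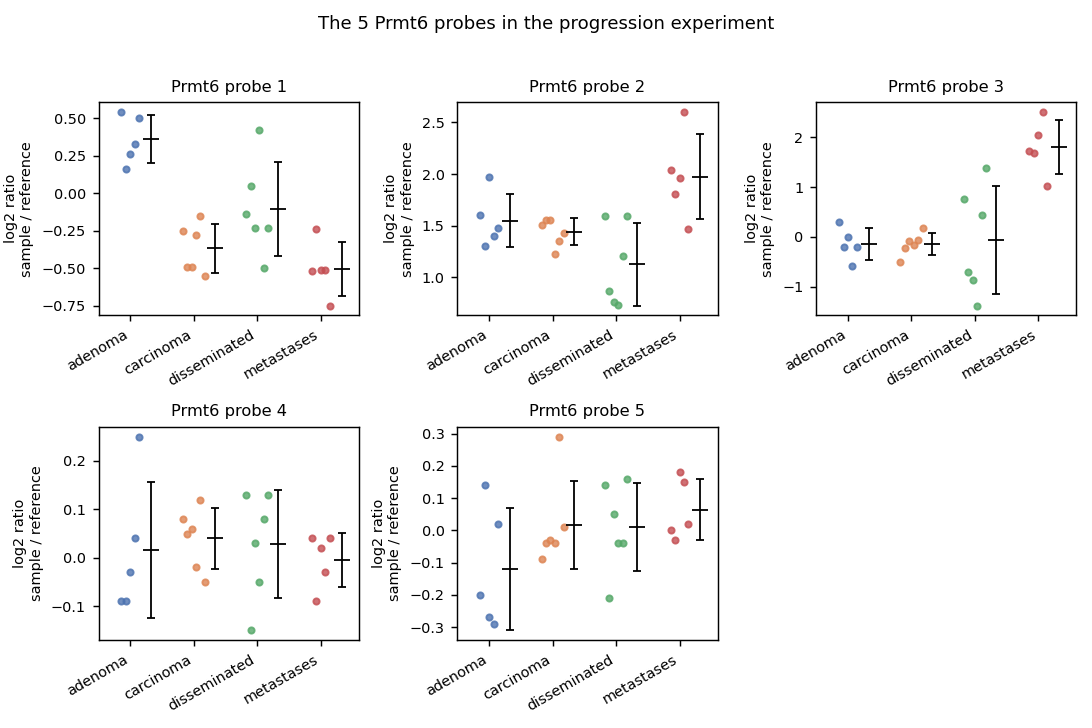
Log2 ratio of sample to reference for the 5 Prmt6 probes in each array of the progression experiment (points), with the mean and SD of each group (black bars). Metastases lie between -0.75 and -0.24 on probe 1, below every adenoma, and between 1.03 and 2.51 on probe 3, above every adenoma and carcinoma, and probe 4 is not above background on any array.

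The disagreement of the Prmt6 probes was tested on the arrays themselves. The test asks whether the probes change by different amounts and is no test of opposite directions. Against carcinomas probe 1 changed by -0.14 (95% interval -0.41 to 0.14) and was not called. The change of probe 1 in metastases minus that of probe 3 was -2.81 against adenomas (exact permutation test, two-sided, p = 0.00794, the smallest possible) and -2.08 against carcinomas (exact p = 0.00216, the smallest possible), with an adjusted p of 0.0214 for each. Among the 18 pairs of probes of 1 gene, 13 differed at an adjusted p below 0.05 in metastases against adenomas and 13 against carcinomas, and 0 did in residual against untreated tumors, with adjustment over all 54 tests. Without Prmt6 probes 4 and 5, which were above background on few arrays or none, 9 of 11 pairs differed in each comparison of metastases. Pairs of probes of other genes were not tested, so these counts are not read as a property of this gene family.

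Prmt7, the enzyme that leaves monomethylarginine, fell toward metastases on its brighter probe. Probe 2 had log2 ratios of -1.8, -1.49, -0.98, -1.28 and -1.32 in adenomas and -3.2, -3.15, -3.01, -2.93 and -2.64 in metastases. Carcinomas ran from -2.55 to -1.63 (median -2.05) and disseminated cells from -3.11 to -1.1 (median -2.78). Metastases lay below all primary tumors without overlap, whereas disseminated cells covered almost the range of all other groups. The probe fell by 1.61 from adenomas to metastases (SE 0.304, adjusted p = 0.000713, a fold of 3.05), by 0.97 from carcinomas to metastases (SE 0.291, adjusted p = 0.0228) and by 1.07 from adenomas to disseminated cells (SE 0.291, adjusted p = 0.0153). Means stood in the order adenomas -1.38 ± 0.3, carcinomas -2.02 ± 0.33, disseminated cells -2.45 ± 0.83 and metastases -2.99 ± 0.22, with n = 5, 6, 6 and 5. Of neighbors in this order none passed the test. Within slides 1, 2 and 3 metastases differed from carcinomas by -0.96, -1.02 and -1.01, and within slides 4, 5 and 6 disseminated cells differed from adenomas by -1.28, -1.66 and -0.48. Without metastases replicate 1 or 2 or carcinoma replicate 4 the call against carcinomas was lost at adjusted p-values of 0.0504 to 0.0556, and with the macrophage list as a covariate it was lost at -0.68 (adjusted p = 0.211). Probe 1, well above background on 20 of 22 arrays, showed -0.02 in metastases against adenomas (95% interval -0.55 to 0.5), and the probes differed in that change by 1.59 (exact permutation p = 0.00794, adjusted p = 0.0214).

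Prmt5, the main source of symmetric dimethylarginine and a partner of Wdr77, was highest in adenomas. Its log2 ratios there were -1.66, -1.7, -1.34, -1.5 and -1.59, and in metastases -2.29, -2.01, -2.18, -2.04 and -1.89. Carcinomas ran from -2.75 to -1.79 and disseminated cells from -3.05 to -1.81. No sample of the other groups reached the adenomas. It fell by 0.91 from adenomas to disseminated cells (SE 0.178, adjusted p = 0.00248), with within-slide differences of -0.83, -1.24 and -0.78 on slides 4, 5 and 6. The fall to metastases was 0.53 (SE 0.186, adjusted p = 0.0412), and it was lost without adenoma replicate 1, 3, 4 or 5 or metastases replicate 1, 2, 3 or 4, at adjusted p-values of 0.0501 to 0.0958. With the values the authors deposited it was -0.22 (adjusted p = 0.399). Carcinomas differed from adenomas by -0.52, also without overlap, at an adjusted p of 0.0628. With the macrophage list as a covariate the changes were -0.39 in disseminated cells (adjusted p = 0.57) and -0.14 in metastases (adjusted p = 0.72).

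Prmt2, a type I enzyme known as a coactivator of the estrogen receptor, had 1 call. It fell by 0.67 from adenomas (-0.88 ± 0.28, n = 5) to disseminated cells (-1.55 ± 0.5, n = 6; SE 0.215, adjusted p = 0.0348), and the groups overlapped. Within slides 4, 5 and 6 the difference was 0.07, -1.48 and -0.7, so the fall was not seen on slide 4. The call was lost without disseminated replicate 3 or 5 or adenoma replicate 2, 3, 4 or 5, at adjusted p-values of 0.0508 to 0.0914. Carcinomas (-1.07 ± 0.38, n = 6) and metastases (-1.25 ± 0.2, n = 5) lay between. Prmt8 gave log2 ratios of -0.29 to 0.27 at a signal that was not well above background.

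Markers of macrophages moved with several of these differences. In disseminated cells against adenomas 11 of the 12 macrophage genes were called higher, and with the mean of the list as a covariate 0 of the 17 probes were called, as were 91 of all 41174 probes in place of 7505. The list separated these groups completely, so the covariate nearly stands in for the group there and the loss of calls says little about its source. In metastases against adenomas 9 of 12 were called higher, and Prmt1 (1.51, adjusted p = 0.0313), Prmt3 probe 1 (0.78, adjusted p = 0.0111), Carm1 probe 2 (-0.67, adjusted p = 0.0327), Prmt6 probe 1 (-0.73, adjusted p = 0.0101) and Prmt7 probe 2 (-1.22, adjusted p = 0.0369) were called with the covariate. Macrophage levels separated these groups completely too, at -0.3 to 0.53 in adenomas and 1.1 to 5.57 in metastases. Calls kept or lost with the covariate therefore say little about their source there either. The levels of metastases and of disseminated cells overlapped those of carcinomas only through carcinoma replicate 6, at 5.25. The other carcinomas were at -0.41 to 0.8. Calls kept or lost with the covariate against carcinomas thus rest on that array and also say little about their source. In carcinomas against adenomas Prmt3 probe 1 (0.55, adjusted p = 0.0172) and Prmt6 probe 1 (-0.69, adjusted p = 0.00254) were called with the covariate. Csf1r, the receptor of the macrophage growth factor, had a mean log2 ratio of -0.57 in adenomas, 4.21 in disseminated cells and 2.17 in metastases. In metastases against adenomas 3 of 7 endothelial genes were also higher and 3 of 8 fibroblast genes lower. Of the lung markers Sftpa1 and Nkx2-1 were not well above background on any adenoma array, and Sftpa1 had a mean of 4.32 in disseminated cells. Without carcinoma replicate 6, whose macrophage level was the highest of the carcinomas, Carm1 probe 2 was called in metastases against carcinomas (-0.62, adjusted p = 0.00183) and Prmt6 probe 2 was not (0.54, adjusted p = 0.0571). The count without it was 4 in place of 2 in disseminated cells against carcinomas and 2 in place of 3 in carcinomas against adenomas.

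**Figure D4:**
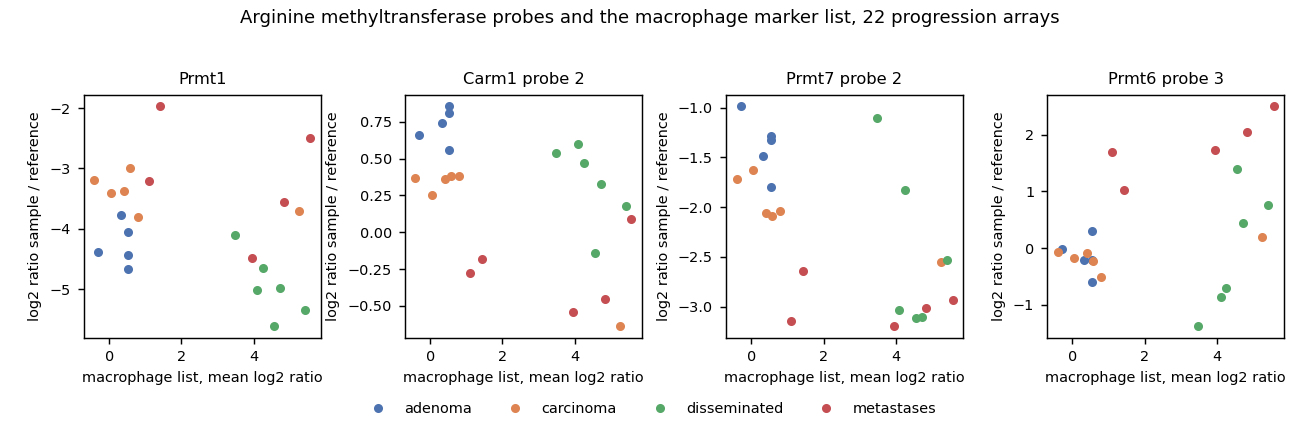
Log2 ratio of Prmt1, Carm1 probe 2, Prmt7 probe 2 and Prmt6 probe 3 (vertical axes) against the mean log2 ratio of the 12 macrophage genes (horizontal axes) on the 22 progression arrays, colored by group. Every metastasis lies below every adenoma for Carm1 probe 2 and Prmt7 probe 2 and above every adenoma for Prmt6 probe 3. Macrophage levels are also higher in every metastasis than in every adenoma, and their part was not tested.

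The calls differed in how often they stood under other ways of processing or fitting the same arrays. The change from adenomas to metastases was called in 13 of 13 for Prmt3 probe 1 and Prmt6 probe 1 and in 14 of 14 for Carm1 probe 2 and Prmt7 probe 2. That of Prmt6 probe 3 from carcinomas to metastases was called in 14 of 14, and that of Prmt6 probe 1 from adenomas to carcinomas in 13 of 13. The fewest were 5 of 14 for Carm1 probe 2 in carcinomas against adenomas, 6 of 14 for Prmt5 in metastases against adenomas and 8 of 15 for Prmt2 in disseminated cells against adenomas. With the deposited ratios Prmt7 probe 2 (-0.65, adjusted p = 0.0698) and Prmt3 probe 2 (0.99, adjusted p = 0.0586) were not called in metastases against carcinomas.

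Other genes of arginine methylation were read from lists chosen for their roles, with earlier results of these data known. The counts of these lists are therefore a description and no test of the lists. In metastases against adenomas 6 of 12 genes of the S-adenosylmethionine cycle were called higher and 2 lower, with a median change of 0.52 where that of all probes was 0.02. Mat2b, the regulatory subunit of the enzyme that makes S-adenosylmethionine, rose by 1.93 (SE 0.427, adjusted p = 0.00243). These and the following counts stand beside 13.1% of all probes called higher and 14.4% lower. Each list gene was read from its brightest probe. Shares over all probes, here and below, include dim probes and several probes of a gene, so they are not matched to the lists. Of 20 RNA-binding proteins known to carry methylarginine, 10 were higher and 4 lower, with a median of 0.42. Caprin1, a stress granule protein, rose by 1.72 (SE 0.388, adjusted p = 0.00275), and Taf15, an RNA-binding protein, fell by 1.19 (SE 0.251, adjusted p = 0.00164). Of 10 partners and regulators 1 was higher and 2 were lower, and Padi2, which converts arginine to citrulline, fell by 1.54 (SE 0.459, adjusted p = 0.0172). Of 10 readers of methylarginine, mostly Tudor domain proteins, 2 were higher and 3 lower. Macrophage and lung genes were higher in the same comparison, and their part in these counts was not tested.

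In metastases against carcinomas the S-adenosylmethionine cycle had 5 genes higher and 1 lower, with a median change of 0.58, and the RNA-binding proteins had 8 higher and 1 lower, with a median of 0.41, beside 8.95% of all probes called higher and 12.1% lower. In the same comparison 3 of 12 macrophage, 4 of 7 alveolar macrophage and 3 of 8 lung epithelium genes were higher, and their part in these counts was not tested. Ahcyl2, which is related to the hydrolase of S-adenosylhomocysteine, rose by 1.71 (SE 0.31, adjusted p = 0.00111), and Caprin1 by 1.69 (SE 0.372, adjusted p = 0.00375). Coprs, which recruits Prmt5 to histones, fell by 0.87 (SE 0.216, adjusted p = 0.00777). Of 3 other genes for arginine methyltransferases, Mettl23 fell by 0.86 (SE 0.165, adjusted p = 0.0016) and Prmt9 by 0.48 (adjusted p = 0.0223). Partners had 1 higher and 1 lower and readers 3 higher and 1 lower. Clearance of free methylarginine, read from Ddah1, Ddah2 and Agxt2, had 0 genes called in both comparisons of metastases with primary tumors. In disseminated cells against carcinomas all 3 were called lower, beside 15.3% of all probes, and 8 of 12 macrophage genes were higher. Ddah1 changed by -1.87 (adjusted p = 0.00901) and Ddah2 by -1.49 (adjusted p = 0.00972). Agxt2 was not well above background on every array, and on each progression array only 2 of the 3 genes were. Its change of -0.25 (adjusted p = 0.0216) is therefore not read as a fall in expression. Prmt9 and the clearance genes were named after their values had been seen.

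The named genes whose log2 ratios ran most like those of a member over the 22 progression arrays were sought among 14769 probes well above background on all of them. For Prmt1 they were Rpl24 (Pearson's r = 0.85), Manbal (0.84) and Bbc3 (0.84). For Prmt7 probe 2 they were Ssbp4, Znrd2 and Chchd10, each at 0.96, and for Carm1 probe 2 they were Sec15l2 (0.93), Scnm1 (0.91) and Asxl2 (0.91). These values describe arrays that share groups, slides and cell composition.

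In the chemotherapy experiment no arginine methyltransferase probe was called between untreated, residual and relapsed tumors, where few of all probes were, so the count of 0 is not a result about these genes. In residual against untreated tumors 0 of 17 probes were called by limma, beside 0.146% of all probes called higher and 0.0243% lower. In relapsed against untreated tumors 0 were called, beside 0.00486% and 0%, and in relapsed against residual tumors 0, beside 0.00486% and 0.223%. At an unadjusted p below 0.05 limma also gave 0 member probes in each comparison, and the methods' t-test gave 1, 0 and 1. Changes ran from -0.39 to 0.22 in residual tumors and from -0.23 to 0.24 in relapsed tumors, both against untreated ones. In data simulated for residual against untreated tumors a log2 change of 1 was recovered for 90% of the changed probes. All member changes were smaller than that, and recovery of changes of their size was not simulated.

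Prmt1 had log2 ratios of -3.24 to -1.17 in untreated tumors (median -2.29), -3.08 to -2.3 in residual tumors (median -2.59) and -3.07, -2.54, -2.69 and -1.52 in relapsed tumors. The groups overlapped widely, and residual tumors differed from untreated ones by -0.39 with a 95% interval of -1.03 to 0.24. This was the widest interval of the 17 probes. Prmt6 probe 3, which was near the reference in adenomas and carcinomas, was at 0.96 to 1.44 in untreated, 0.54 to 1.62 in residual and 0.8 to 1.24 in relapsed tumors. The experiments were labeled by different protocols and normalized apart, so these levels are not compared. Its change in residual tumors was -0.07 (95% interval -0.39 to 0.26). For Prmt7 probe 2 untreated tumors ran from -0.99 to -0.36, residual tumors from -1.42 to -0.7 and relapsed tumors from -0.92 to -0.72. The difference was -0.25 in residual against untreated tumors (-0.52 to 0.01, adjusted p = 0.588) and 0.28 in relapsed against residual tumors (-0.02 to 0.57, adjusted p = 0.722). Carm1 probe 2 ran from -0.81 to -0.57 in untreated tumors, from -0.93 to -0.72 in residual tumors and from -0.76 to -0.67 in relapsed tumors, with a change of -0.1 in residual tumors (-0.22 to 0.02). Prmt2, Prmt3 and Prmt5 changed by at most 0.24 in size in relapsed against untreated tumors. Macrophage levels were -0.39 to 2.29 in untreated, -0.59 to 1.47 in residual and -0.91 to 0.79 in relapsed tumors, and the 10 luminal markers had means of 4.13, 4.21 and 4.13. Of the 6 lists of genes of arginine methylation, none had a gene called in any chemotherapy comparison.

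**Figure D5:**
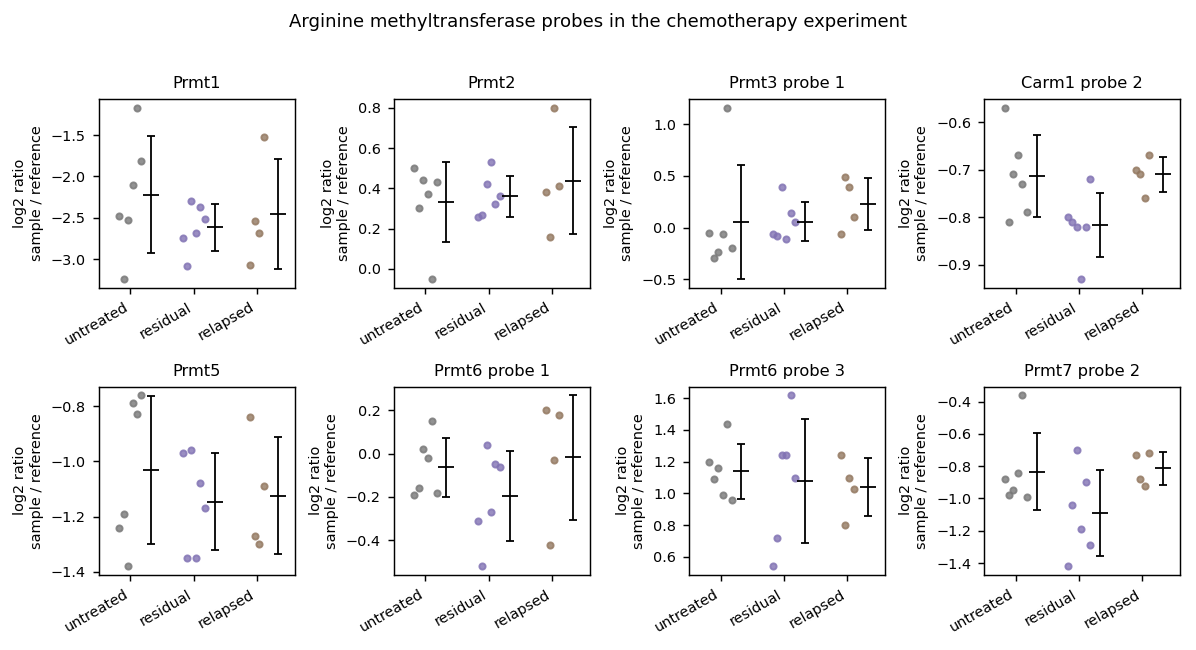
Log2 ratio of sample to reference for 8 arginine methyltransferase probes in each tumor of the chemotherapy experiment (points), with the mean and SD of each group (black bars). Untreated, residual and relapsed tumors overlap on every probe shown, and untreated replicate 5 is highest for Prmt1, Prmt3 probe 1 and Prmt7 probe 2.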

How the data were processed

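RNA of GFP-positive sorted cells, labeled with Cy5, was hybridized with a Cy3-labeled Universal mouse reference on 38 two-color Agilent arrays without dye swaps. The chemotherapy samples were labeled by a Quick Amp kit and the progression samples by 2 rounds of amplification. The authors deposited scanner intensity values of both channels, made with Agilent Feature Extraction 10.7, and a matrix of log2 ratios for which the notes name limma. Its 41174 rows match the probes, column medians are 0 to 0.05 and each column correlates at 0.966 or more with the values computed here. Its centering is not stated, and it served as an alternative.

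Mean intensity signals were background-corrected (normexp, offset 50, median local background), normalized by loess within arrays and by quantiles between arrays for the 2 experiments separately, and averaged per probe. Control spots and non-uniform spots were left out. limma 3.58.1 in R 4.3.3 was fitted over all groups of an experiment, and a probe was called at a Benjamini-Hochberg adjusted p below 0.05 over 41174 probes. Exact permutation tests compared probes of 1 gene. The order of levels was read within a probe. All member probes are described, and the brightest stands for a gene in the order of levels. From 6 lists of pathway genes the rule named, for metastases against each primary tumor group and residual against untreated tumors, 2 genes that rose most and 2 that fell most, from called probes well above background. Genes like a member were the 3 named genes with the highest correlation, for the 3 members with the widest range of group means. The members and lists were chosen with earlier results of these data known. Alternatives changed the background correction, normalization, probe filter, block, samples fitted, test, threshold and covariate, or left out 1 array. On simulated data with 200 changed probes, 49 to 66% of log2 changes of 1 were recovered in the progression comparisons and 82 to 91% in the chemotherapy comparisons, with 5 to 14 false calls. The 200 changed probes were far fewer than the 4715 to 11307 called in the progression comparisons, so recovery in the data can differ. The number of arrays limits the precision. Scanner coordinates are on mm7, and promoters are from RefSeq on GRCm38.p6.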

Additional observations from a re-analysis of the deposited data

Results flagged for a closer look

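Within groups of 4 to 6 arrays, 10 of 119 sets of values had 1 array set apart from the others by Dixon's test, where chance sets apart about 1 in 20. Carcinoma replicate 6, whose macrophage list had a mean log2 ratio of 5.25, gave 4 of them. It was at -1.8 for Prmt2 (other carcinomas -1.12 to -0.78), at -0.11 for Prmt3 probe 1 (0.25 to 0.38), at -0.64 for Carm1 probe 2 (0.25 to 0.38) and at -2.75 for Prmt5 (-2.02 to -1.79). Untreated replicate 5 gave 3. It was at -0.05 for Prmt2 (other untreated tumors 0.3 to 0.5), at 1.16 for Prmt3 probe 1 (-0.29 to -0.05) and at -0.36 for Prmt7 probe 2 (-0.99 to -0.84). Disseminated replicate 3 was at 0.38 for Prmt3 probe 4 (others -0.71 to -0.33). Carcinoma replicate 5 was at 0.29 for Prmt6 probe 5 (-0.09 to 0.01) and adenoma replicate 4 at 0.27 for Prmt8 (-0.1 to 0), both probes that were dim. The part of host cells in these values was not tested.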

How the results depend on the processing

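No change of a member probe turned its direction while called. Of 26 called changes, 16 were called with each of the 22 progression arrays left out. The numbers of member probes called were, with arrays left out, 5 to 8 for metastases against adenomas, 2 to 5 for metastases against carcinomas, 3 to 6 for metastases against disseminated cells, 2 to 4 for disseminated cells against carcinomas, 3 to 7 for disseminated cells against adenomas and 1 to 4 for carcinomas against adenomas. They were 0 in the chemotherapy comparisons under every alternative run at an adjusted p.

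With 1 probe per gene 4, 2, 1, 3 and 1 were called for metastases against adenomas, metastases against carcinomas, disseminated cells against carcinomas, disseminated cells against adenomas and carcinomas against adenomas. With a change of at least 2-fold required, counts in the order of the first list were 3, 2, 2, 1, 1 and 0. At an adjusted p below 0.01 they were 2 for metastases against carcinomas, 1 for disseminated cells against adenomas and 1 for carcinomas against adenomas. Aquantile and no normalization between arrays, which give equal ratios, gave 1 for disseminated cells against carcinomas and 1 for carcinomas against adenomas. Fitting only the groups compared gave 1 for metastases against disseminated cells, 1 for disseminated cells against adenomas and 5 for carcinomas against adenomas. The equal-variance t-test with adjustment gave 0 for metastases against disseminated cells and 1 for disseminated cells against adenomas. Without adjustment it gave 9, 6, 6, 2, 8 and 7 in the order of the first list. Over all probes it gave 15215, 15649, 8758, 14423, 10236 and 12217 in that order. The macrophage covariate gave 1 for metastases against carcinomas, 0 for disseminated cells against carcinomas and 0 for disseminated cells against adenomas. The deposited log2 ratios gave 2 for metastases against carcinomas and 1 for disseminated cells against carcinomas. The cause of these differences was not tested.

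Same-numbered replicates did not deviate together in every pair of any comparison (correlations -0.03 to 0.21 in metastases against adenomas, 1 of 5 above 0.1). Correlations were -0.13 to 0.39 in relapsed against untreated tumors, with 3 of 4 above 0.1. In residual against untreated tumors they were -0.4 to 0.43, with 2 of 6 above 0.1. With the replicate block 7, 5, 6, 2, 5 and 4 member probes were called in the order of the first list and 0 in the chemotherapy comparisons. Calls of Prmt5 in metastases against adenomas (adjusted p = 0.0544) and of Prmt2 in disseminated cells against adenomas (0.0817) were lost. With the block 3 of all probes were called in residual against untreated tumors in place of 70.

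Of all probes, 11307 were called in metastases against adenomas, 8659 in metastases against carcinomas, 5298 in metastases against disseminated cells, 10183 in disseminated cells against carcinomas, 7505 in disseminated cells against adenomas and 4715 in carcinomas against adenomas. The macrophage covariate gave 4259, 2926, 6119, 1580, 91 and 5140. At 0.01 they were 6291, 3980, 2114, 5213, 2995 and 1531, and with at least 2-fold 5734, 4032, 2855, 4329, 3787 and 1379. Metastases against disseminated cells had 368 by the t-test with adjustment and 1532 with only the groups compared, and disseminated cells against adenomas 3264 and 4798. Carcinomas against adenomas had 2790 with median centering and 2362 with Aquantile. Residual against untreated tumors had 70, and 20 with an offset of 0, 25 with processed signals, 11 by the t-test, 1 with slide as a fixed block, 5 at 0.01, 32 with at least 2-fold and 340 with the covariate. Relapsed against untreated tumors had 2, and 0 to 26. Relapsed against residual tumors had 94, and 17 by the t-test, 44 with the fixed block and 53 at 0.01. The share of calls that were higher moved from 54.6% to 44.1 to 44.5% in carcinomas against adenomas with processed signals, median centering or deposited ratios, and with Aquantile from 41.6 to 53.6% in disseminated cells against adenomas and from 38.3 to 50.1% against carcinomas.

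Signal over background limits Prmt8 and Prmt6 probes 4 and 5, whose values near 0 say nothing about expression. In each pair of groups other than metastases and carcinomas or disseminated cells and adenomas, slide and scan day cannot be told apart from progression group.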
